A study of Mus musculus with 3 samples.

Results

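The cells described here are the 435 cells of the D10 culture that carry the code 6 in the deposited cluster labels, out of 7821 culture cells and 15827 cells in the whole series. They made up 5.56% of the culture (95% exact binomial interval 5.06 to 6.09). The study annotated the cluster as blood among the cell types of the embryonic tail, and assigned culture cells to the tail clusters by nearest neighbours. It also reported that culture cells of larger non-fibrous clusters were poorly integrated with the tail cells. Of the 435 cells, 34 had 1% or more of their unique molecular identifiers (UMIs, each standing for 1 captured transcript) in haemoglobin genes and 401 had less. They are called the haemoglobin-rich and the haemoglobin-poor cells below, because the name taken from the tail went against the markers in the 401 cells. *Klf1* and *Slc4a1* had 0 UMIs there, whereas *Pou5f1* had 579 and *Dppa5a* had 3606.

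The study asked how closely mouse embryonic stem cells (mESCs) driven towards tendon resemble embryonic tendon, and profiled single cells of 3 samples with 10x 3′ chemistry, 1 library each. The culture library came from mESCs with the ScxGFP tendon reporter, which form embryoid bodies in LDN-193189 (an inhibitor of BMP receptors), are then given CHIR (a Wnt pathway agonist) with LDN-193189 and, last, TGFβ1, SAG (a hedgehog agonist) and FGF2 up to D10. All live cells were loaded without a sort on GFP. An earlier sample of the same differentiation (PM, paraxial mesoderm) and the tail of mouse embryos at E14.5 are the other libraries, used here only to compare haemoglobins. The mESCs had been kept on mouse embryonic fibroblast feeders, and dead cells were depleted before capture. With 1 library per condition no difference was tested, no p-value is given, and every interval covers counting error only.

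Red blood cells form in waves. The first, primitive wave arises in the yolk sac and fills its cells with embryonic haemoglobin, built from the zeta chain (*Hba-x*) and the beta-like chains βh1 (*Hbb-bh1*) and εy (*Hbb-y*). Primitive cells exchange βh1 for εy as they mature. Definitive cells of the fetal liver and marrow use adult alpha (*Hba-a1*, *Hba-a2*) and adult beta chains (*Hbb-bs*, *Hbb-bt*). Pluripotent cells are held by a different set of factors around *Pou5f1*, *Sox2* and *Nanog*, with genes such as *Tfcp2l1*, *Tbx3*, *Klf2* and *Zfp42* marking the naive state and *Dnmt3b*, *Otx2* and *Pou3f1* the primed state of the later epiblast.

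The globin genes define the haemoglobin-rich cells, and *Alas2*, the erythroid enzyme that starts haem synthesis, had UMIs in 28 of these 34 cells. For 6 of these genes the 100 bases upstream of the start are shown, as RefSeq annotates them on GRCm38.p6. Capitals mark 3 short motifs on either strand that are known from erythroid promoters: GATAA (read by GATA factors, TTATC on the other strand), CACCC (read by Krüppel-like factors, GGGTG on the other strand) and the CCAAT box (ATTGG on the other strand).
*Hbb-y*, chr7:103853208-103853307, minus strand: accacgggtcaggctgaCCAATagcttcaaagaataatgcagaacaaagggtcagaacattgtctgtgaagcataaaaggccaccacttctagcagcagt
*Hbb-bs*, chr7:103827929-103828028, minus strand: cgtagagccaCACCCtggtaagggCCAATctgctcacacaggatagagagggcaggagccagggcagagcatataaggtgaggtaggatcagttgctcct
*Hbb-bt*, chr7:103813924-103814023, minus strand: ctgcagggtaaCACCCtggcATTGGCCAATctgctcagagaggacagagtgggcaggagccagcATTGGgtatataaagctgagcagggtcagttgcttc
*Hba-x*, chr11:32276500-32276599, plus strand: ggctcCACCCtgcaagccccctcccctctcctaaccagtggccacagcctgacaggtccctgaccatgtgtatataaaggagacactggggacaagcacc
*Hba-a1*, chr11:32283572-32283671, plus strand: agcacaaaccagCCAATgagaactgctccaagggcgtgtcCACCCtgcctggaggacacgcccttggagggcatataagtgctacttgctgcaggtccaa
*Alas2*, chrX:150547317-150547416, plus strand: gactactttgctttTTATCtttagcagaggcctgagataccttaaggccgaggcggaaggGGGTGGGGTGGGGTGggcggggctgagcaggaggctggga

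Of these windows, *Hbb-y* held a CCAAT box without CACCC, *Hba-x* held CACCC without a CCAAT box, and *Hbb-bs*, *Hbb-bt* and *Hba-a1* held both. *Alas2* held 1 GATAA and 3 CACCC matches. Over all 32817 such windows in the table, 8.56% held GATAA, 27.2% CACCC and 18.9% CCAAT. A match describes the letters only and is not a measured binding site. Of 9 genes looked for, 7 had a window in the table; *Hba-a2*, the seventh, carried 1 CACCC and 1 CCAAT match like *Hba-a1*.

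The 34 haemoglobin-rich cells had a median of 4113 UMIs (874 to 13982) and 1218.5 detected genes, against 2231 UMIs (762 to 20759) and 1286 genes in the 401 haemoglobin-poor cells and 5782.5 UMIs and 2735.5 genes in the 7386 culture cells with other codes. The mitochondrial share had a median of 1.29% in the haemoglobin-rich, 0.236% in the haemoglobin-poor and 1.71% in the other cells. Below 0.5% lay 56.1% of the haemoglobin-poor cells and 4.03% of the others. Scrublet, which scores cells by likeness to simulated pairs, called 27 haemoglobin-poor cells (6.73%), 0 haemoglobin-rich cells (0 of 34, which allows up to 8.82% by a floor of 3 counts and 10.3% by the Clopper-Pearson interval) and 1.20% of the other cells doublets. The part of depth, mitochondrial share and doublets in the differences below was not tested beyond the values given with them.

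The haemoglobin threshold fell in an empty range. The haemoglobin-rich cell with the lowest share had 1.92%, and the haemoglobin-poor cell with the highest had 0.221%, with a median of 0 over the haemoglobin-poor cells. Outside the cluster, 2 of 7386 culture cells passed the threshold, 1 with code 1 at 6.42% and 1 with code 3 at 2.43%. Haemoglobin UMIs of any number appeared in 5.24% of the haemoglobin-poor cells and 6.04% of the other cells. Such shares depend on depth, and the median depths of these groups, given above, differ. The summed haemoglobin level was 21.9 CPM in the haemoglobin-poor and 21.1 CPM in the other cells, which include the 2 cells past the threshold.

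Haemoglobin of the 34 cells was mainly embryonic. Of 46186 haemoglobin UMIs among 167154, *Hbb-y* gave 57.5%, *Hba-x* 30.9%, *Hbb-bh1* 5.43%, *Hba-a1* 2.53%, *Hbb-bs* 2.15%, *Hba-a2* 0.992% and *Hbb-bt* 0.539%. Embryonic genes thus gave 95.9% of the beta-like UMIs (95.7 to 96.1) and 89.8% of the alpha-like UMIs (89.3 to 90.2). Reads that matched several places were ignored in the counting, so the split between the near-identical pairs *Hba-a1* and *Hba-a2*, and *Hbb-bs* and *Hbb-bt*, is uncertain.

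**Figure D1:**
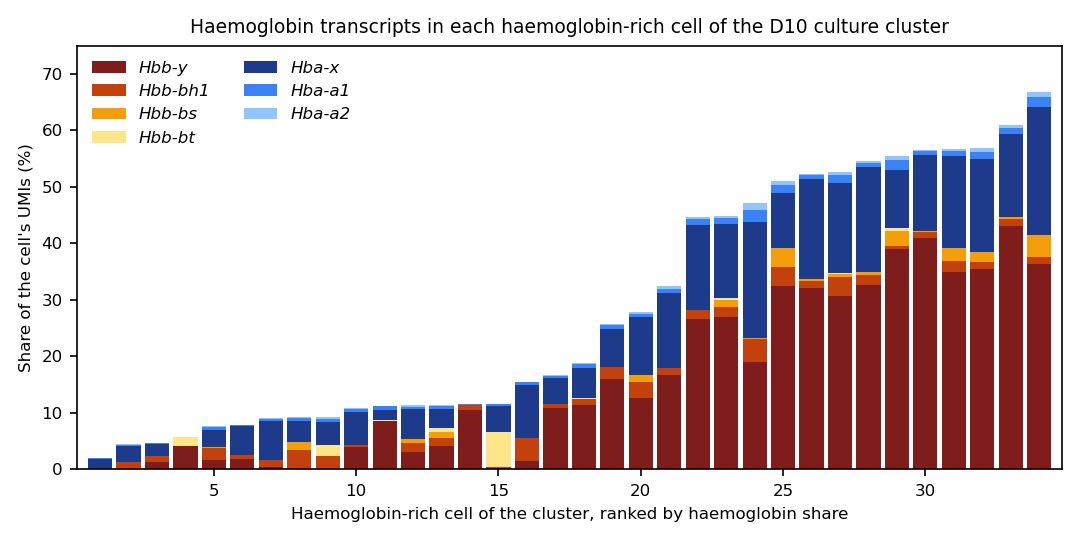
UMIs in haemoglobin genes as a percent of all UMIs in each of the 34 haemoglobin-rich cells, ordered by that share. The share ran from 1.92% to 66.8% with a median of 17.8%.

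The cells were uneven. *Hbb-y* UMIs were found in 30 of the 34 cells, with up to 3230 in 1 cell, and *Hba-x* in 32. Cell 1 of the plot, lowest in haemoglobin share, held 217 *Hba-x*, 35 *Hbb-bh1* and 0 *Hbb-y* UMIs beside 32 UMIs of *Car2* (carbonic anhydrase of red cells) and 26 of *Top2a* (a topoisomerase of dividing cells). Cell 14 held the reverse, 640 *Hbb-y* and 0 *Hba-x* UMIs. *Hbb-bt*, an adult beta gene, reached 10 UMIs in only 6 cells, and cell 15, which had the most (54), had 0 *Hbb-bs* and 0 *Hbb-y* UMIs. Of the 6 cells, 3 (cells 13, 23 and 29) also had 10 or more *Hbb-bs* UMIs and the others had 0.

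A gap in the shares between 18.9% and 25.6% was used, after the values were seen, to set the 16 cells over 20% haemoglobin beside the 18 cells under it. βh1 made up 21.6% of the embryonic beta UMIs (20.4 to 22.8) in the cells under 20% and 6.13% (5.83 to 6.44) in the cells over it. Per cell the median was 39.9% and 5.55%, and the ranges overlapped, 0 to 100% against 1.43 to 18.0%. *Hbb-y* gives most of the haemoglobin UMIs that set the split, so a smaller βh1 part over 20% is partly built into it, and these values are a description. Of 146 genes with at least 100 UMIs over both sets and 50 CPM (counts of a gene scaled to the same total of UMIs, per 1e6) in the higher one, 8 were at least 2-fold higher (5.48%) and 53 at least 2-fold lower (36.3%) in the cells over 20%, with a median ratio of 0.557 over all of them, a level that includes the dilution by haemoglobin itself. Of the 8 higher genes 5 were haemoglobin genes, whose UMIs set the split. *Alas2* (2.97-fold) and *Fth1* (2.67-fold, ferritin heavy chain, an iron store) were among the others. *Hbb-bt* stood at 863 against 2018 CPM, and 45 of its 66 UMIs over 20% lay in 1 cell. The other adult beta gene, *Hbb-bs*, went the other way, at 11182 against 1522 CPM (7.35-fold). The split between these genes is uncertain, as stated above.

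**Figure D2:**
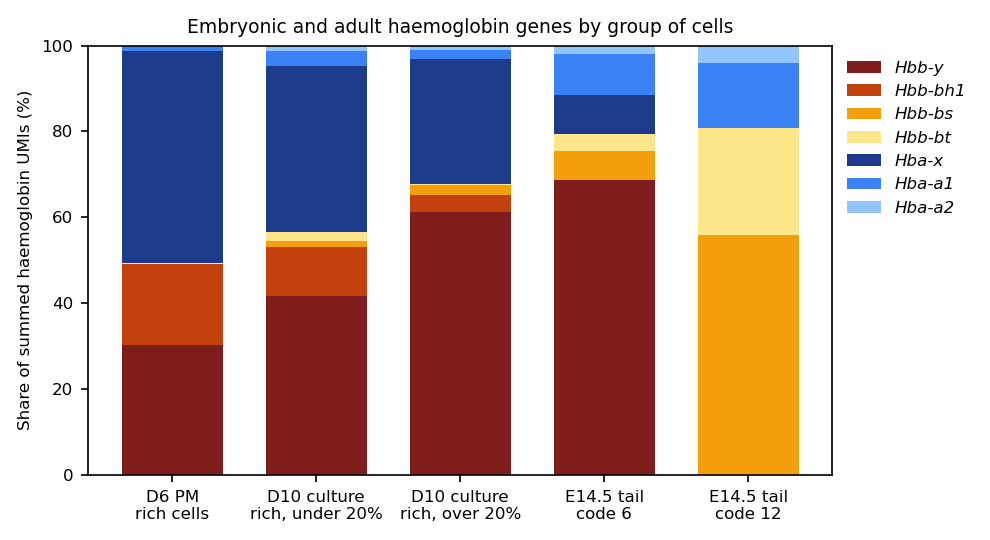
Make-up of the haemoglobin UMIs, in percent, in the haemoglobin-rich culture cells and in cells of the PM and tail libraries. *Hbb-y* leads in the culture cells (57.5%) and in tail code 6 (68.7%), *Hba-x* in PM (49.3%) and *Hbb-bs* in tail code 12 (55.9%).

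The tail gave all 71 of its code 6 cells and all 128 of its code 12 cells past the same threshold, 219 of 2052 cells in all, and the PM library gave 27 of 5954. Adult alpha genes took more of the alpha UMIs in tail code 6, where the embryonic share was 44.0% against 89.8% in the culture cells, and tail code 12 was almost wholly adult (embryonic beta 0.0587% of beta UMIs). The βh1 part of embryonic beta was 38.2% in the PM cells, 8.64% in the culture cells and 0.143% in tail code 6, and the median over the PM cells was 84.4%, above their pooled share, which 1 cell with 2253 of the 8721 *Hbb-y* UMIs weighs on. In tail code 12 the pooled share was 60.6% of few UMIs, where 199 of 263 *Hbb-bh1* UMIs lay in 1 cell. These libraries differ in depth (medians of 5622 UMIs per cell in the culture, 13512 in the tail and 8171 in PM) and each is 1 sample, so the order describes these cells.

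The haemoglobin-rich cells also carried transcripts of red cell membrane, haem and iron genes. *Slc4a1*, the band 3 anion exchanger of the red cell membrane, had 69 UMIs against 0 in the haemoglobin-poor cells, at least 207-fold higher against a floor of 3 UMIs over that group. *Alas2* stood at 879 against 1.33 CPM (663-fold, 180 to 5526), with UMIs in 28 of the 34 cells, and *Car2* at 1520 against 19.9 CPM (76.4-fold). All of these came from genes other than those that set the split, although from the same cells.

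Of 3345 genes that passed the filter between the haemoglobin-rich and haemoglobin-poor cells, 122 (3.65%) were at least 2-fold higher and 1471 (44%) at least 2-fold lower in the haemoglobin-rich cells, and the median ratio over all was 0.557. A gene under 50 CPM in the lower group passed only through the group where it is high, which fixes its direction. Counts over genes that passed are therefore descriptions, and the ratio of the summed level of all measured members, which needs no filter, stands beside them. Of 25 measured erythroid genes 6 passed, 5 of them only through the haemoglobin-rich cells, and 5 were higher (median 55.1, summed level 23.0-fold). Of 9 haem synthesis genes 4 passed, 2 of them (*Alas2* and *Urod*) only through the haemoglobin-rich cells, and all 4 were higher (summed level 14.7-fold), with *Cpox* at 13.3-fold and *Urod* at 8.85-fold beside *Alas2*; *Alas1*, the form used in other tissues, had 2 UMIs. Iron genes were higher in 4 of 5 (1 passed only through the haemoglobin-rich cells, summed level 4.22-fold), led by *Fth1* at 25043 against 2824 CPM (8.87-fold, 8.50 to 9.26). *Tfrc*, the transferrin receptor, which is counted in the erythroid list, was level at 1.04-fold. Red cell maturation genes were higher in 4 of 5 (summed level 3.58-fold), with *Fam210b* at 10.2-fold and *Ube2o*, a ubiquitin ligase of late reticulocytes, at 3.96-fold. All 10 core pluripotency genes that passed, 9 of them only through the haemoglobin-poor cells, were lower (summed level 0.0334-fold), and *Pou5f1*, *Sox2* and *Nanog* had 0 UMIs.

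Regulators were sparse. *Klf1* had 16 UMIs in 8 cells, *Gata1* 15 in 9 and *Tal1* 16 in 13. *Kit*, *Ptprc*, *Cd34*, *Csf1r* and *Spi1*, genes of blood progenitors and white cells, had 0 UMIs, but others of the blood progenitor list were found, such as *Itga2b* (22 UMIs in 6 cells), *Laptm5* (14 in 9) and *Lyl1* (11 in 7), and the list summed to 514 CPM against 160 in the haemoglobin-poor and 151 in the other cells. Of 13 macrophage genes 11 were at 0, with 2 UMIs in all. The cell cycle list had 0 genes higher and 1 lower of 11 (*Ccne1*, 0.175-fold). Within the haemoglobin-rich cells, it summed to 772 CPM over 20% haemoglobin and 2999 CPM under it (0.257-fold, 0.191 to 0.342). For the blood progenitor list these were 170 and 805 CPM (0.211-fold), where the median ratio over all genes compared was 0.557. *Scx*, the tendon transcription factor, had 49 UMIs in the haemoglobin-rich cells, of which 38 came from cell 17.

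**Figure D3:**
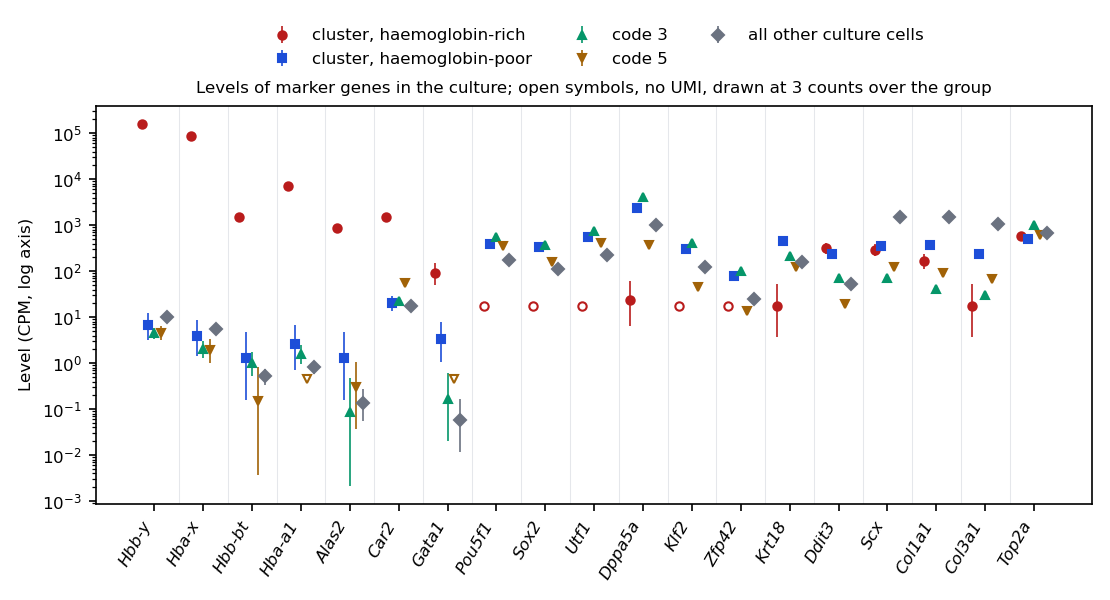
Levels in CPM on a log axis, with exact 95% Poisson intervals, of marker genes in the haemoglobin-rich, haemoglobin-poor and reference culture cells. Each red cell gene shown is highest in the haemoglobin-rich cells, and *Pou5f1* (384 and 545 CPM) and *Dppa5a* are high in the haemoglobin-poor cells and in code 3.

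The 401 haemoglobin-poor cells held pluripotency genes at a higher level and tendon genes at a lower level than the other culture cells. *Pou5f1* stood at 384 against 174 CPM (2.21-fold, 2.03 to 2.40) and *Dppa5a*, an RNA-binding protein of pluripotent cells, at 2392 against 1002 CPM (2.39-fold). *Scx* stood at 362 against 1513 CPM (0.239-fold). This reference itself includes 1088 cells of code 3, which share the pluripotency genes: against codes 1, 2 (tendon) and 4 (high in *Col2a1*) alone *Pou5f1* was 57.4-fold higher. With each cell weighted equally (the mean of per-cell CPM) the *Pou5f1* ratio to all other cells was 4.42-fold and that of *Scx* 0.110-fold.

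Of 4616 genes that passed, 199 (4.31%) were at least 2-fold higher and 414 (8.97%) at least 2-fold lower, around a median ratio of 1.01. Of 14 naive pluripotency genes 9 passed the filter, 6 of them only through the haemoglobin-poor cells, and all 9 were higher (median 2.52, summed level of all 14 genes 2.45-fold), among them *Tbx3* (6.43-fold), *Tfcp2l1* (5.68-fold), *Klf5* (3.32-fold), *Zfp42* (3.06-fold) and *Klf2* (2.41-fold). *Tbx3*, *Tfcp2l1*, *Klf5* and *Zfp42* were under 50 CPM in the other cells (8.04, 10.9, 35.4 and 25.4 CPM). The 5 naive genes that did not pass ran from 1.26-fold (*Klf4*) to 3.92-fold (*Tcl1*). Core genes were higher in 6 of 11 (3 passed only through the haemoglobin-poor cells, median 2.21, summed level 1.97-fold), with *Sox2* at 3.01-fold. Primed genes were past 2-fold in 0 of 8 (median 1.12). All 9 tendon genes that passed (median 0.239, summed level 0.242-fold) and all 5 cartilage genes that passed (median 0.189, summed level 0.171-fold) were lower, 1 and 4 of them passing only through the other cells, for example *Col1a1* (0.251-fold), *Col2a1* (0.140-fold) and *Col9a1* (0.0649-fold). Without sub-group 4, described below, the tendon median was 0.0226.

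Genes of the integrated stress response, which cells use when protein synthesis is disturbed, were higher in 5 of 8 (2 passed only through the haemoglobin-poor cells, median 2.05). Their summed level was 1822 CPM, near that of code 3 (1723 CPM) and above that of the tendon cells (553 CPM). They included *Ddit3* at 241 against 53.7 CPM (4.49-fold), *Trib3* (2.83-fold) and *Atf4* (2.07-fold). Epithelial genes were higher in 3 of 7 (4 passed only through the haemoglobin-poor cells, *Cldn4* among them, median 1.97, summed level 2.14-fold), with the claudin *Cldn4* at 5.67-fold and the keratin *Krt18* at 2.79-fold. Of the 197 *Cldn4* UMIs 156 lay in sub-group 2, and the haemoglobin-poor cells outside it stood at 43.5 against 23.0 CPM in the other culture cells. Further genes with large ratios were *E330020D12Rik* (10.5-fold), *Taf7l* (10.3-fold), *Prph*, a neuronal intermediate filament gene (9.63-fold), and *Fabp3*, a fatty acid carrier (4.13-fold). Sub-group 2, described below, held 264 of the 303 *Prph* UMIs and 244 of the 313 *E330020D12Rik* UMIs. The haemoglobin-poor cells outside it stood at 41.4 against 20.9 CPM (*Prph*) and 73.2 against 19.8 CPM (*E330020D12Rik*) in the other culture cells. The cell cycle list had 0 of 11 past 2-fold in either direction (median 0.772).

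Blood markers in these 401 cells were near 0. *Hbb-y* had 10 UMIs, *Gata1* 5, and *Ptprc* 0, and 8 of 25 erythroid genes were at 0. The erythroid list summed to 307 CPM, against 7053 CPM in the haemoglobin-rich cells, 275 in code 3 and 226 in the other cells. The macrophage list had 85 UMIs with 7 of 13 genes at 0. Of 120 UMIs of the megakaryocyte list, 67 were *Pf4* (platelet factor 4) and all came from 1 cell. The haemoglobin-poor cells thus lay near code 3 and far below the haemoglobin-rich cells in erythroid transcripts.

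Code 3, the culture cluster with the highest *Pou5f1* level (545 CPM, with *Col2a1* at 26.9 CPM), was the nearest to the haemoglobin-poor cells. Among the 15 nearest neighbours of a haemoglobin-poor cell, 65.2% on average carried code 6, 20.8% code 3 and 6.15% code 5, whereas the library held 5.56% code 6 and 13.9% code 3. For a haemoglobin-rich cell 97.5% carried code 6, and 94.5% were other haemoglobin-rich cells. In 120 of the 401 haemoglobin-poor cells most neighbours lay outside the cluster.

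Against code 3, 152 of 4316 genes (3.52%) were at least 2-fold higher in the haemoglobin-poor cells and 32 (0.741%) at least 2-fold lower, around a median of 0.972. Without sub-group 4, described below, fewer genes were higher and more were lower, so that the counts came near each other (values under processing). Core pluripotency genes were past 2-fold in 2 of 13, both lower (median 0.705): *Tdgf1*, a Nodal co-receptor, at 0.425-fold and *Gdf3*, a TGFβ family ligand, at 0.450-fold. *Pou5f1* stood at 384 against 545 CPM (0.705-fold) and *Dppa5a* at 2392 against 4021 CPM (0.595-fold). The naive list was lower than in code 3 in its summed level, at 3384 against 5272 CPM (0.642-fold), and 1 of the 9 naive genes that passed was at least 2-fold higher and 0 lower (median 0.732). Without sub-group 4, described below, the naive gene *Fgf4* was past 2-fold lower (0.389-fold). Epithelial genes were higher in 4 of 7 (median 2.10), but *Krt8* and *Krt19* passed only through the haemoglobin-poor cells and the summed level of the list was 1.16-fold, with *Krt8* at 4.99-fold and *Krt19* at 3.12-fold. Mitotic genes *Plk1* (0.421-fold), *Cdc20* (0.470-fold) and *Cenpf* (0.495-fold) were the 3 of 12 cell cycle genes past 2-fold, all lower (median 0.568). *Cdkn1a*, an inhibitor of cell division and p53 target, was 2.35-fold higher, *Ddit3* 3.31-fold higher and the nuclear RNA *Malat1* 2.43-fold higher. Sub-group 2 below held 18452 of the 25816 *Malat1* UMIs, and the haemoglobin-poor cells outside it stood at 7813 CPM, near the 7058 CPM of code 3. For *Ddit3* those cells stood at 129 against 73.0 CPM.

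Tendon genes were higher in 8 of 8 against code 3 (median 8.76, summed level 7.84-fold), but 7 of the 8 passed only through the haemoglobin-poor cells and the difference rested largely on 41 cells, sub-group 4 below. Without them *Scx*, at 3.20-fold in place of 5.12-fold, was the 1 tendon gene that still passed the filter, the list summed to 362 CPM against 248 in code 3 (1.46-fold, 1.31 to 1.63), and *Col1a1* and the matrix gene *Postn* turned from 9.12-fold and 10.9-fold to 0.749-fold and 0.879-fold. The largest ratio, 28.9-fold for the small heat shock gene *Cryab*, came from 115 UMIs of which 1 cell held 80.

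Against code 5, a further cluster with *Pou5f1* (351 CPM), naive genes were higher in 8 of 8 (7 passed only through the haemoglobin-poor cells, median 8.28, summed level 6.76-fold), where 7.62% of 4476 genes were at least 2-fold higher. *Tfcp2l1* was 19.6-fold, *Klf5* 16.0-fold and *Dppa5a* 6.37-fold higher. *Pou5f1* itself was at 1.09-fold (0.996 to 1.20). Primed genes were at least 2-fold lower in 3 of 7, where 4.85% of all genes were: *Dnmt3b* (0.292-fold), *Pou3f1* (0.369-fold) and *Cd24a* (0.326-fold). *Actc1*, cardiac and fetal muscle actin, had 0 UMIs against 1236. The muscle list, which holds this gene, was uneven in code 5. It had UMIs in 38.1% of the cells, with a per-cell median of 0 and a highest value of 49624 CPM. p53 target genes were higher in 7 of 9 (3 passed only through the haemoglobin-poor cells, median 3.03, summed level 2.02-fold).

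Shares of cells with a UMI depend on depth, so each cell was thinned to 3000 UMIs, which left 142 haemoglobin-poor, 24 haemoglobin-rich, 1081 code 3 and 3936 tendon cells (codes 1 and 2). *Pou5f1* was found in 58.5% of the haemoglobin-poor cells (49.9 to 66.7; 57.4% before thinning), 78.1% of code 3 and 1.55% of the tendon cells, which should lack it and so give the background. *Dppa5a* was found in 78.2%, 97.5% and 3.53%. *Scx* was found in 35.2%, 10.3% and 91.6%, and *Ddit3* in 37.3%, 18.6% and 11.9%. Sub-group 4, described below, gave 38 of the 142 cells, and without it *Pou5f1* was found in 56.7%, *Dppa5a* in 71.2%, *Scx* in 20.2% and *Ddit3* in 41.3%. With or without it the haemoglobin-poor cells lay between code 3 and the tendon cells for the first 3 genes and above both for *Ddit3*. Median depths before thinning were 2231, 10369.5 and 5545 UMIs. *Alas2* was found in 22 of 24 haemoglobin-rich cells (91.7%, 73.0 to 99.0) and 1 of 142 haemoglobin-poor cells (0.704%).

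**Figure D4:**
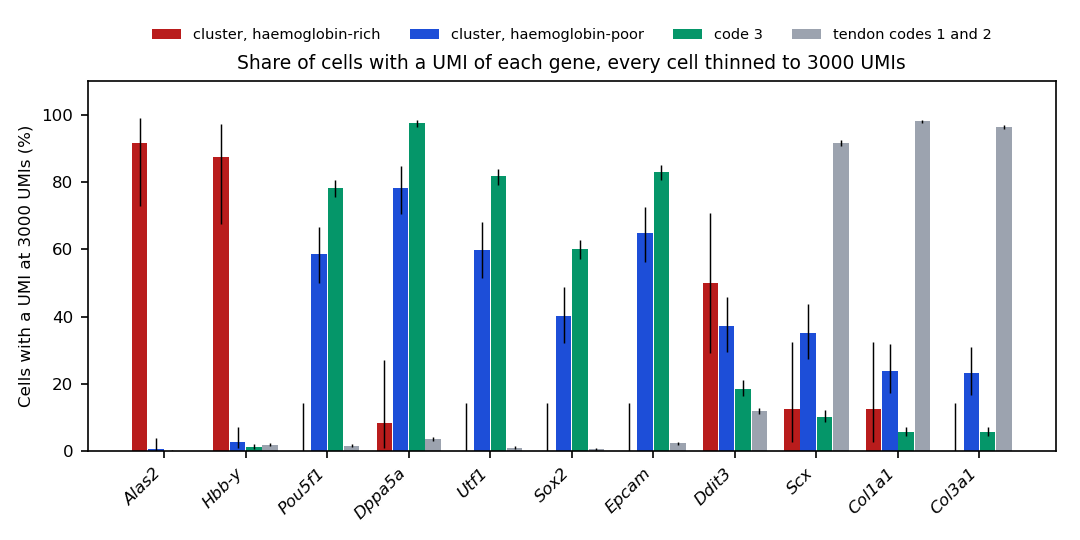
Percent of cells with at least 1 UMI of each gene after thinning to 3000 UMIs per cell, with exact 95% binomial intervals. Haemoglobin-poor cells that reached this depth lie below code 3 for *Pou5f1* (58.5% against 78.1%) and above it for *Scx* (35.2% against 10.3%).

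*Pou5f1* and *Scx* were found together in 30 of the 142 thinned haemoglobin-poor cells (21.1%), near the product of the separate shares (20.6%), in 12 of 104 (11.5%) without sub-group 4, and in 6.85% of code 3. For another pair of genes, *Dppa5a* and *Scx*, 28 of 38 thinned cells of sub-group 4 (73.7%) had both. Most cells of that sub-group were called doublets, and the part of doublets in these counts was not tested.

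The haemoglobin-poor cells were divided by clustering into 5 sub-groups, called by number. Their leading genes define them and are descriptions of the same cells. Over 3121 genes, each sub-group is set beside the rest of the haemoglobin-poor cells.

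Sub-group 1, with 131 cells and a median of 1461 UMIs, had the highest *Dppa5a* (6006 CPM, 3.37-fold) and little *Malat1* (944 CPM, 0.0476-fold). Of all genes 6.31% were at least 2-fold higher and 21.6% lower. *Dppa3* (4.91-fold) and *Ooep* (4.34-fold), both known from germ cells and oocytes, *Nanog* (3.58-fold) and the mitotic gene *Cdc20* (3.47-fold) were among the higher ones, and tendon genes were lower in 8 of 8, 7 of which passed only through the reference. Most tendon UMIs of the reference lay in sub-group 4: the list summed to 281 CPM in sub-group 1, 416 in sub-group 2, 351 in sub-group 3 and 5124 in sub-group 4. The median mitochondrial share was 0.0819%.

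Sub-group 2, with 128 cells and a median of 3653 UMIs, had the reverse in *Malat1*, 32642 CPM (4.18-fold), with a mitochondrial share of 0.0521%. Of all genes 3.62% were at least 2-fold higher and 7.05% lower. *Xist* had the largest ratio (15.9-fold, 124 UMIs against 13 in the rest), with UMIs in 16 of the 128 cells. *Prph* (11.3-fold), *Cldn4* (6.34-fold), the Nodal antagonists *Lefty2* (6.21-fold) and *Lefty1* (4.08-fold) and the nuclear RNA *Neat1* (5.33-fold) were also among the leading genes. p53 targets were higher in 5 of 9, epithelial genes in 3 of 7 (2 passed only through sub-group 2), and cell cycle genes were lower in 8 of 10 (2 passed only through the reference, median 0.363, summed level 0.377-fold). Sub-groups 1 and 2 therefore stood at the 2 ends of the range for *Malat1* (944 and 32642 CPM), and both had a low mitochondrial share.

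Sub-group 3, with 86 cells and a median of 1893.5 UMIs, had a mitochondrial share of 4.03% and 0 cells below 0.5%. Of all genes 4.39% were at least 2-fold higher. It led in *Rpgrip1* (11.2-fold), *Meg3* (6.27-fold), *Gm42418* (6.11-fold, a locus that overlaps ribosomal RNA) and the mitochondrial ribosomal RNA *mt-Rnr2* (5.70-fold). Primed genes were higher in 4 of 6, with *Dnmt3b* at 5.28-fold and *Otx2* at 3.39-fold, while *Krt8* was at 0.0872-fold.

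Sub-group 4, with 41 cells and a median of 12242 UMIs, held 26 of the 27 called doublets (63.4% of its cells). Of all genes 4.61% were at least 2-fold higher and 2.66% lower. Tendon genes were higher in 8 of 8 (7 passed only through sub-group 4, median 32.1, summed level 14.1-fold), with *Col1a1* at 1067 CPM, 534 of all 565 UMIs of the haemoglobin-poor cells, and *Dppa5a* stood at 2617 CPM beside them. Its neighbours were 39.7% code 6, 33.5% code 3 and 9.27% code 1.

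Sub-group 5, with 15 cells and a median of 1771 UMIs, led in *Cited2* (31.7-fold), *Me1* (16.6-fold), the basement membrane genes *Col4a1* (14.1-fold) and *Lamc1* (9.96-fold), *Rhox5* (9.93-fold) and *Krt19* (9.40-fold). Of all genes 12.5% were at least 2-fold higher and 19.7% lower. The naive list summed to 4832 CPM against 3354 in the other haemoglobin-poor cells (1.44-fold). *Dppa5a* gave 2577 CPM of this (2392 over all haemoglobin-poor cells), *Klf5* 966 CPM (16 of its 30 UMIs in 1 cell) and *Klf4* 676 CPM. *Klf2*, another naive gene, was lower (1 UMI, 0.104-fold), and *Esrrb*, *Nr0b1*, *Tfcp2l1*, *Tcl1* and *Prdm14* had 0 UMIs. The core list summed to 1031 against 2541 CPM (0.406-fold), with *Sox2* at 1 UMI and *Nanog* at 0. Endoderm genes were also found in these cells, *Sox17* at 419 CPM (6 cells), *Gata6* at 354 (7), *Gata4* at 322 (7) and *Dab2* at 322 (8). *Afp*, *Apoa1*, *Apob*, *Rbp4*, *Trf* and *Cer1* of the same list had 0 UMIs. The whole endoderm list summed to 2899 CPM in sub-group 5 against 2502 in the other haemoglobin-poor cells (1.16-fold, 0.929 to 1.43). In sub-group 2 the list was higher, at 3986 CPM. Over all haemoglobin-poor cells the endoderm list summed to 2510 CPM, against 2803 in code 3 and 1087 in the other culture cells. Of the neighbours of sub-group 5, 27.6% carried code 13, a culture cluster of 43 cells.

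**Figure D5:**
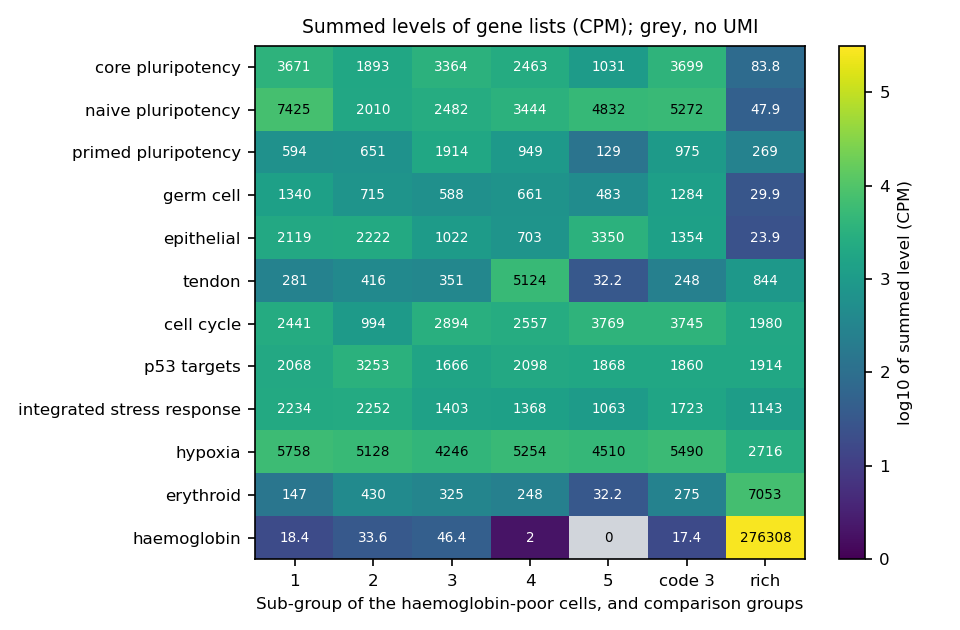
Summed level of gene lists (CPM, printed in each cell; colour on a log10 scale) in the 5 sub-groups of the haemoglobin-poor cells, in code 3 and in the haemoglobin-rich cells. Tendon genes sum to 5124 CPM in sub-group 4 and at most 416 in the other sub-groups, and core pluripotency genes run from 1031 CPM in sub-group 5 to 3671 in sub-group 1.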

How the data were processed

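The deposited tables hold whole-number UMI counts per gene and cell, made by the authors with cellranger 3.1.0 (multi-mapping reads ignored; genome build not given in the sources used here). The authors removed cells above 7.5% mitochondrial transcripts and the lowest and highest 2% of cells by transcripts, and clustered the culture with the tail as reference in Seurat 3.0; the cluster codes are theirs. Counts were used as deposited, 53403944 UMIs in the culture. Libraries shared 4 (culture and tail), 10 (culture and PM) and 3 barcodes (tail and PM), 0 of them in code 6. Doublets were called by Scrublet with an expected 6% (116 culture cells, 1.48%) and kept, except in an alternative.

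Levels are CPM of summed UMIs with exact 95% Poisson intervals, ratios carry conditional binomial and shares Clopper-Pearson intervals. Genes with 100 UMIs over both groups and 50 CPM in the higher group were compared against a 2-fold threshold, and a group at 0 was set to a floor of 3 counts. PCR and capture error are not covered. Sub-groups came from 2000 variable genes, 30 components, 15 neighbours and Leiden clustering at 0.3. The scripts were tested on simulated data. Genes were named by list membership and as the 15 with the largest ratios per direction; *Cryab*, *Pf4* and cell 1, 14, 15 and 17 were singled out after their values were seen.

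Members and the 27 gene lists were chosen with earlier results of these data known. The study numbers clusters in more than 1 way. The cell numbers it tabulates put code 3 at the cluster that its text calls fibrocartilage, whereas its list of marker genes and the values here (*Col2a1* at 26.9 CPM in code 3 and 2271 in code 4) put code 4 there. Codes are therefore described by their markers, and only codes 1 and 2 (tendon) and 6 (blood), on which both numberings agree, are given the study's names. The analysis plan took codes 1, 2 and 3 for tendon and fibrocartilage and code 5 for the pluripotency-gene cluster; these references were run as planned, and codes 1, 2 and 4, and code 3, were added. Tools were Python 3.11.15, NumPy 2.4.6, SciPy 1.17.1, Scanpy 1.11.5, leidenalg 0.10.2, scikit-learn 1.9.0 and Matplotlib 3.10.9. Some items are not reported here.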

Additional observations from a re-analysis of the deposited data

How the results depend on the processing

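No paired analysis was possible because each group has 1 library. Of the results that answer a comparison, 71 values moved beyond their counting interval or by over 1.5 times and 70 did not; of single genes 88 moved, 98 did not and 2 reversed. The cause was not tested, except where fewer cells or genes enter by construction.

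For haemoglobin-poor over other cells, the mean of per-cell CPM gave 4.42 for *Pou5f1*, 4.35 for *Dppa5a* and medians of 3.39 (core), 4.75 (naive) and 0.0842 (tendon). Without cells under 1000 genes these were 2.01, 2.16, 2.37 (naive) and 0.264 (tendon), and the cluster's share was 3.94%. The reference of codes 1, 2 and 3 gave 1.95 (*Dppa5a*), 2.17 (naive) and 0.203 (tendon); the reference without code 5 gave 2.60, 2.18, 2.60, 2.27 and 0.211. Chosen after seeing the data, the reference of codes 1, 2 and 4 gave 57.4, 103, 77.3, 86.7 and 0.148, and that without codes 3 and 5 gave 48.8, 36.5, 48.8, 32.1 and 0.158. Leaving out doublets gave a tendon median of 0.111, and leaving out sub-group 4 (also added later) gave 0.0226 with *Dppa5a* at 2.27.

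For haemoglobin-poor cells over code 3, per-cell CPM gave 0.882 (*Pou5f1*), 0.704 (*Dppa5a*), 4.13 (tendon) and 0.649 (cell cycle). *Dppa5a* was at 0.575 without doublets, 0.540 without cells under 1000 genes (tendon 9.54) and 0.567 without sub-group 4, where the tendon value of 3.20 is *Scx* alone (the summed list was at 1.46) and *Col1a1* reversed to 0.749 and *Postn* to 0.879.

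At 1.5-fold, 554 genes were higher and 792 lower (poor over other), 212 higher (rich over poor), and 410 higher and 328 lower (poor over code 3). At 4-fold these were 14 and 81, 45 higher and 534 lower, and 47 and 0. With only 20 UMIs required they were 3429 and 1845, 404 and 3645, and 1395 and 566. Without sub-group 4, 316 were higher against other cells, and 98 higher and 82 lower against code 3; without doublets 60 were lower against code 3. Thinning to 2000 UMIs gave 43.0% (*Pou5f1*), 68.6% (*Dppa5a*) and 22.0% (*Scx*) of haemoglobin-poor cells, and 5000 gave 73.9% (*Pou5f1*) and 54.5% (*Scx*); without sub-group 4 *Scx* was at 20.2%. With 30 neighbours the haemoglobin-rich value was 91.2%, and with 1000 variable genes the haemoglobin-poor value was 56.8%. Resolution 0.1 gave 2 and resolution 1 gave 9 sub-groups. With 1 library a low depth limits rare genes: 142 of 401 haemoglobin-poor cells reached 3000 UMIs.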
